A study of Mus musculus with 20 samples.

Results

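The genes described here are 47 genes of mitosis and the G2/M phase of the cell cycle, measured in alveolar macrophages of mice that breathed cigarette smoke or air. They were chosen from a named list of cell division genes, and all 47 of 47 listed genes were among the 13225 genes of the deposited expression table. Poly-A selected RNA was sequenced from macrophages sorted as CD45, Siglec-F and CD11c positive cells, with 1 library per mouse. The 4 groups of 5 mice were miR-155 knockout (KO) mice after 4 weeks of cigarette smoke, KO mice after 4 weeks of air, wild-type (WT) mice after 4 weeks of smoke and WT mice after 4 weeks of air. KO mice were of strain B6.Cg-Mir155tm1.1Rsky/J, in which the microRNA gene is removed from the germ line, and WT mice were C57BL/6. Neither age nor sex is stated for these animals. The comparisons address whether these genes changed with smoke, and whether the change or the level differed between KO and WT mice.

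Alveolar macrophages live in the air spaces of the lung, where they clear particles and surfactant, and they are known to keep up their numbers largely by dividing in place. A cell that divides makes most of its mitotic proteins shortly before it needs them: the kinase CDK1 and its cyclins start mitosis, spindle motors and kinetochores move the chromosomes, a checkpoint waits for their attachment, and the anaphase-promoting complex destroys the cyclins again. Many of the genes are held silent in resting cells by the DREAM complex and switched on in G2 by B-MYB and FOXM1, and these factors are known to act through a short promoter element called the cell cycle genes homology region (CHR).

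Levels are in CPM, the usual unit that divides the reads of a gene by all reads counted in its library. Library totals ran from 6885680 to 11952088 reads, and a member had between 10 reads (Ttk in 1 KO air mouse) and 5796 reads (Mki67 in 1 KO smoke mouse) in a library. Alveolar macrophage markers were present throughout: all 12 of 12 were measured, and their summed level ran from 54595 to 63079 CPM in KO smoke mice, 52014 to 57314 in KO air mice, 54170 to 61883 in WT smoke mice and 52627 to 56578 in WT air mice. Most of this sum came from Lyz2 and Chil3 (means of 28956 and 18681 CPM in KO smoke and 26727 and 17389 in WT air mice). With smoke, 3 of the 12 were higher and 4 lower in KO mice (limma, adjusted p under 0.05), where 7.05% and 8.45% of all genes were. In WT mice 2 were higher and 5 lower, where 9.66% and 12.8% of all genes were. The host transcript of the deleted microRNA, Mir155hg, had 0 to 5 reads in KO smoke libraries, 0 to 15 in KO air, 0 to 21 in WT smoke and 0 to 1 in WT air, so at this depth it did not check the genotype labels. Libraries IIIb2, IIIb3 and IIIb4 of the KO air group stood apart, with 1451 to 1645 genes without a read against 259 to 1224 in the other 17 libraries, and the calls that changed without them are given. In bulk RNA, more macrophages in division and more of these transcripts per dividing cell cannot be told apart.

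Smoke raised the expression of most of these genes in both genotypes. With a limma model over all genes, 37 of 47 were higher in KO smoke than in KO air mice at an adjusted p under 0.05, where 7.05% of all 13225 genes were higher, and none of the 47 was lower, where 8.45% of all genes were. In WT mice 38 of 47 were higher in smoke than in air, where 9.66% of all genes were higher, and again none was lower, against 12.8% of all genes. The median log2 change of the 47 genes was 0.70 in KO mice and 0.81 in WT mice, against medians over all genes of -0.01 and -0.02. In KO mice, 26 of the 47 had all 5 smoke mice above all 5 air mice, which held for 4.54% of all genes. In WT mice 38 of the 47 did, against 8.15% of all genes. Averaged over the genotypes, 43 of 47 were higher in smoke (13.6% of all genes were), and the exceptions were Cks1b, Cks2, Pttg1 and Anln. The averaged call of Bub1b (0.15 log2) was lost without IIIb2, IIIb3 and IIIb4 (0.099 log2) and without IVa2, IVa4, IVa5, IIIb3, IIIb4, IIa1, IIa5, IIb1, IIb2, Ia4 or Ib1 (0.12 to 0.15 log2), and that of Pbk without IVb2, IIa5 or Ib1 (0.47 to 0.50 log2). Both genotypes shared 35 of the called genes, which are 35 of the 37 called in KO and 35 of the 38 called in WT mice.

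Added up within each mouse, the 47 genes made 2422, 2561, 2593, 3285 and 2358 CPM in KO smoke mice, against 1649, 1665, 1812, 1758 and 1736 CPM in KO air mice. WT smoke mice had 2806, 2903, 2556, 2710.1 and 2468 CPM, against 1622, 1689.5, 1692, 1556 and 1495 CPM in WT air mice. In this and all later lists, mice stand in the order of their codes (KO smoke IVa2, IVa4, IVa5, IVb2 and IVb4, KO air IIIa5 and IIIb1 to IIIb4, WT smoke IIa1, IIa5, IIb1, IIb2 and IIb3, WT air Ia3, Ia4, Ib1, Ib2 and Ib4). Every smoke mouse lay above every air mouse of either genotype, and the air groups overlapped each other, as did the smoke groups. The group means were 2644 ± 371 CPM in KO smoke, 1724 ± 67.4 in KO air, 2689 ± 178 in WT smoke and 1611 ± 85.5 in WT air (SD, n = 5 each). KO smoke mouse IVb2 was the highest of its group in 41 of the 47 genes, and without that mouse 30 genes were called in KO mice in place of 37. Without IIIb2, IIIb3 and IIIb4, which leaves 2 KO air mice, 33 were called in KO mice. The KO calls of Cenpe (0.44 log2, adjusted p = 0.128), Mad2l1 (0.45, adjusted p = 0.148), Kif22 (0.56, adjusted p = 0.12), Kif23 (0.38, adjusted p = 0.102), Nusap1 (0.68, adjusted p = 0.0679) and Ttk (0.91, adjusted p = 0.15) were then lost. Spc24 (1.30, adjusted p = 0.0214) and Tacc3 (0.66, adjusted p = 0.0224) passed in KO mice in that fit, and Ect2, Pbk, Spc24 and Ttk passed in WT mice.

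**Figure D1:**
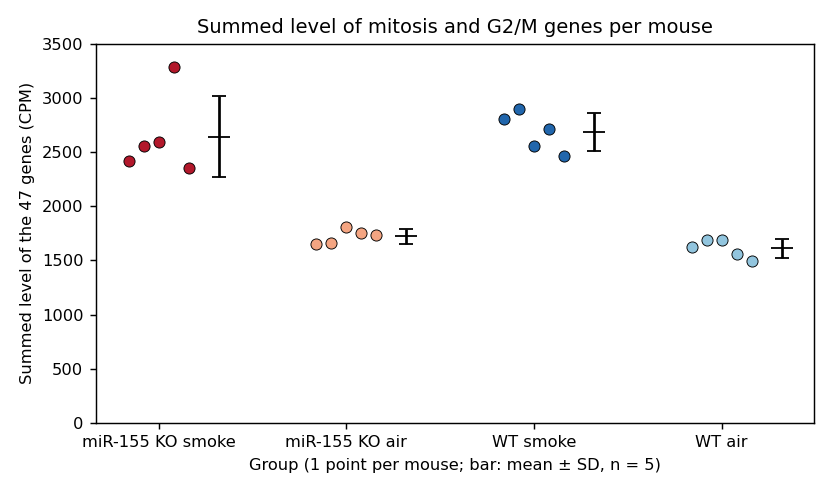
Summed level of the 47 mitosis and G2/M genes (y axis, CPM) in each mouse of the 4 groups, with 1 point per mouse and a bar for the mean ± SD of 5 mice. All 10 smoke mice lie between 2358 and 3285 CPM, above the 10 air mice at 1495 to 1812 CPM, and the highest point is KO smoke mouse IVb2.

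**Figure D2:**
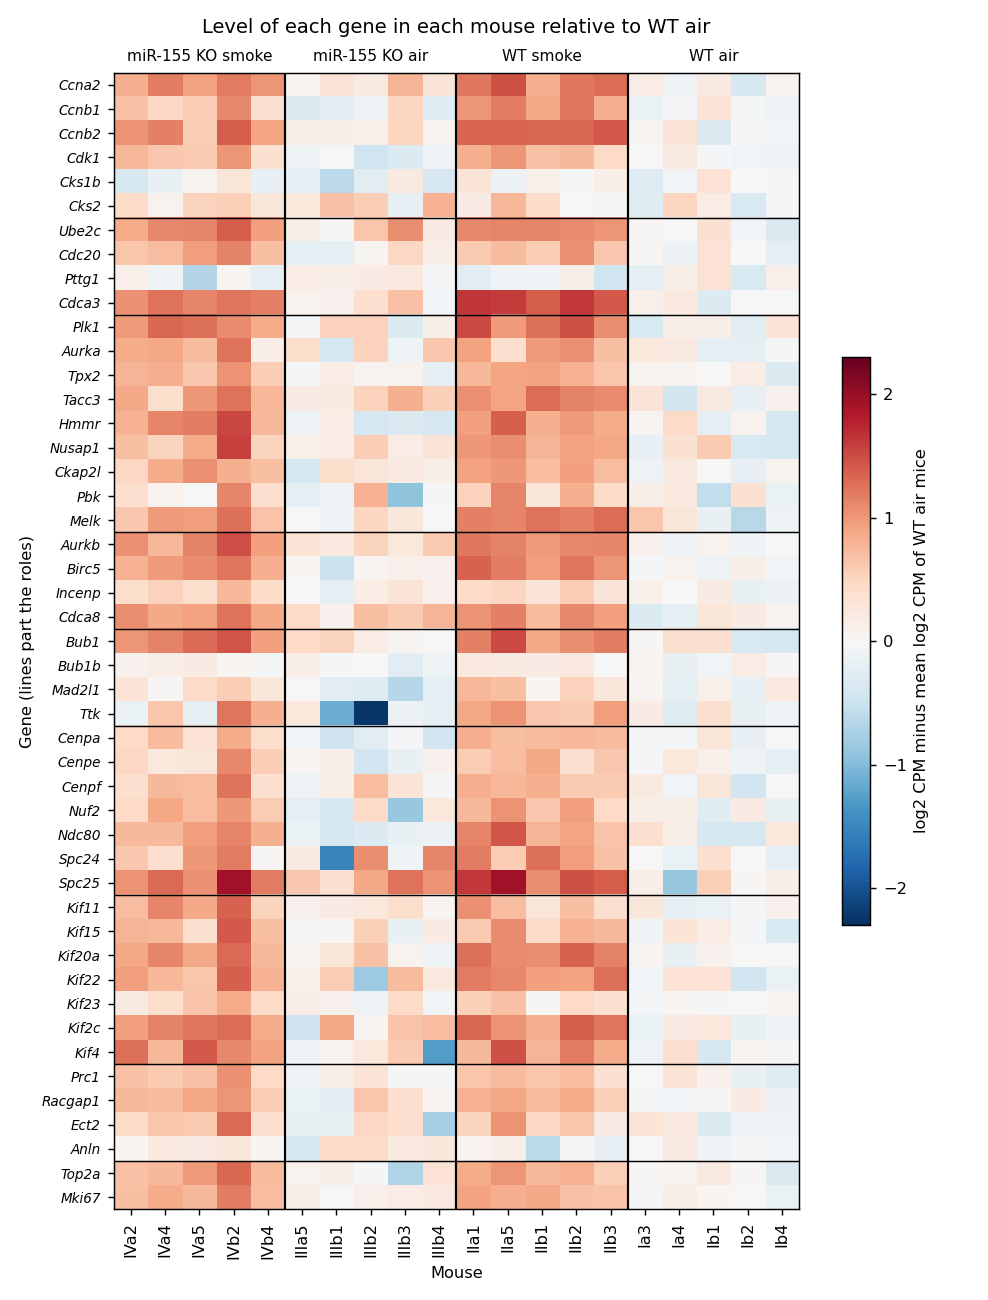
Each row is a gene and each column a mouse. The colour gives the log2 CPM minus the mean log2 CPM of the 5 WT air mice, and horizontal lines part the role groups. The smoke columns of both genotypes are red for most rows, while the rows of Cks1b, Cks2, Pttg1, Bub1b and Anln stay pale, and column IVb2 is the darkest of the KO smoke mice.

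The DNA in front of the genes was searched for letters that mitotic gene promoters are known to share. The 47 genes were chosen as genes of mitosis and G2/M. A high share of these letters can follow from that choice alone and carries no information on smoke. RefSeq promoters (build GRCm38.p6, 250 bases before and 50 bases from the transcript start) were matched by symbol for 40 of the 47 genes, in 42 windows. The letters were TTTGAA or TTCGAA for the homology region, CCAAT for the NF-Y box and GGCGG for a GC-rich element, each on both strands, and TTCGAA is its own reverse complement. The homology region letters stood in 76.2% of the members' windows and 19.2% of all 32851 windows, CCAAT in 73.8% and 37.4%, and GGCGG in 90.5% and 48.8%. Over the 11985 windows of genes in the expression table, the shares were 14.2%, 37.97% and 78.3%, so that GGCGG was common there too. Homology region letters and CCAAT occurred together in 66.7% of the members' windows, 7.52% of all windows and 5.92% of the windows of genes in the table. Of the 46 homology region matches, 1 overlapped another of the motifs. These are matches of letters and not tested sites.

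Windows of 6 genes, picked without a rule, are printed as examples of how the letters lie. They run from 90 bases before the start to 30 bases from it, 5′ to 3′ on the gene's strand. Capitals mark the CHR letters (TTTGAA or its reverse complement TTCAAA) and the NF-Y box (CCAAT or its reverse complement ATTGG). The first 4 genes were called in both genotypes, and Cks1b and Pttg1 in neither.
Ccnb2: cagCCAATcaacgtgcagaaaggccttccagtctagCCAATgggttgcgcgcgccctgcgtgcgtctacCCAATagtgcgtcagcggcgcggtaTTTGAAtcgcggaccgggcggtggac
Ube2c: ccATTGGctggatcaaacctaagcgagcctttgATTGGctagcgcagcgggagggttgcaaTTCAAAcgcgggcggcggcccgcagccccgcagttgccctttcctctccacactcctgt
Cdk1: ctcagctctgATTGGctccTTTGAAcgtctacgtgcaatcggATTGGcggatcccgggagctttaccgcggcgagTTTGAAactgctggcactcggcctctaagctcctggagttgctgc
Kif11: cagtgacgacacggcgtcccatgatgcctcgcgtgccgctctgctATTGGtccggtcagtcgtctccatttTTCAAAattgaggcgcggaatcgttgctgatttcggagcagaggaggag
Cks1b: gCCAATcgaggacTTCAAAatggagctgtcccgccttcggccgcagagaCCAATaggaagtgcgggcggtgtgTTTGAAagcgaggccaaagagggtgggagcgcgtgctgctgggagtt
Pttg1: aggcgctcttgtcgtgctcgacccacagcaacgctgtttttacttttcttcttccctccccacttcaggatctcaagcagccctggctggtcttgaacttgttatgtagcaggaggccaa
The windows lie at chr9:70421525-70421644 (minus strand) for Ccnb2, chr2:164769839-164769958 (plus) for Ube2c, chr10:69352883-69353002 (minus) for Cdk1, chr19:37376292-37376411 (plus) for Kif11, chr3:89418262-89418381 (minus) for Cks1b and chr11:43425952-43426071 (minus) for Pttg1. Ccnb2 held 3 CCAAT boxes in front of its start and 1 CHR match just behind it. Cks1b, which was not called in either genotype, held 2 CHR matches and 2 CCAAT boxes, as many of each as Cdk1, which was called in both. The printed stretch of Pttg1 held neither. It lies inside the annotated gene, whose 5′ end is at chr11:43426251, and so does not cover the DNA in front of that end. The printed stretch of Cks1b likewise lies inside its annotated gene, whose 5′ end is at chr3:89418383. Of the genes not printed, Birc5, Melk, Nuf2, Nusap1 and Mad2l1 were called in both genotypes with neither kind of letters in their windows.

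From 75 bases before the start to 49 bases after it, 71.4% of the members' windows held the homology region letters against 6.75% of all windows, and 66.7% held CCAAT against 19.0%. This stretch covers the bins where the members' own matches were densest. Another stretch, which overlaps it but lies wholly before the start, was also searched. There the homology region letters stood in 21.4% of the members' windows against 6.81% of all windows, and CCAAT in 59.5% against 19.6%. Of the 46 CHR matches, 21 lay at or after the start. The 2 genes with 2 windows each, Ect2 and Prc1, have overlapping windows, and their matches were counted in each window. Within the 40 genes, presence of the letters did not separate larger from smaller smoke changes: the median log2 change averaged over genotypes was 0.77 for the 30 genes with CHR letters and 0.74 for the 10 without, with 28 of 30 and 8 of 10 called. Ccna2, Aurkb, Kif20a, Tpx2, Spc24, Pbk and Incenp had no matched window.

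**Figure D3:**
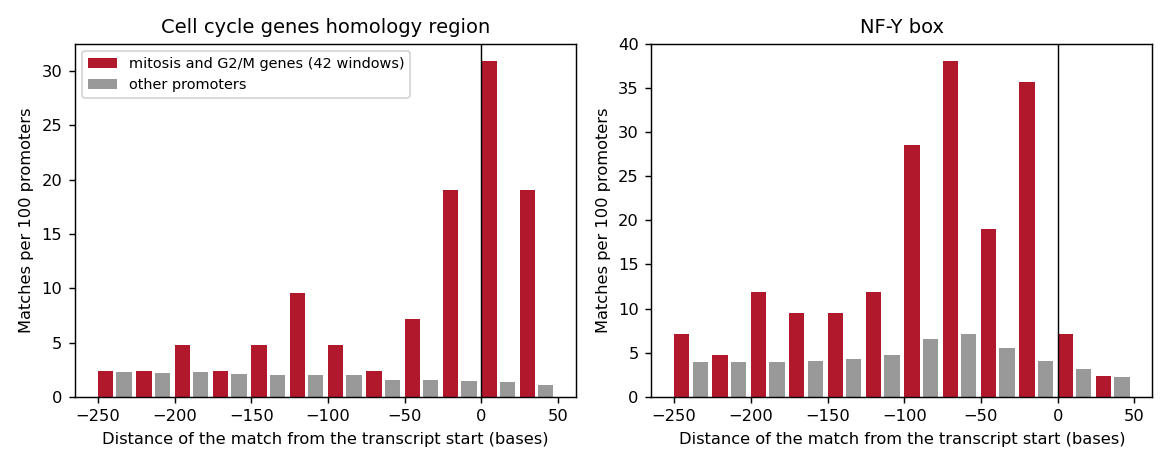
Matches per 100 promoters (y axis) in bins of 25 bases by distance from the transcript start (x axis, bases), for the 42 windows of the mitosis and G2/M genes and for all other RefSeq windows. Matches in the overlapping windows of Ect2 and of Prc1 are counted in each window. Member matches of the homology region letters (left) are densest around the start, at 31.0 per 100 in the first 25 bases from it, and those of CCAAT (right) lie mostly within 100 bases before it, at 38.1 per 100 in the densest bin.

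Mki67 encodes the Ki-67 protein, which coats mitotic chromosomes and is the usual marker of proliferating cells, and Top2a encodes topoisomerase II alpha, which untangles sister DNA before anaphase. Mki67 (chr7:135689784-135716361) had 381, 423, 394, 532 and 385 CPM in KO smoke mice, against 261, 233, 253, 263 and 275 CPM in KO air mice. In WT mice it had 445, 420.2, 429, 375 and 371 CPM in smoke, against 229, 258, 241, 236 and 211 CPM in air. The smoke and air mice did not overlap in either genotype, and IVb2 was the highest of all 20 mice. The change was 0.71 ± 0.08 log2 in KO mice (1.63-fold, adjusted p = 1.51e-07) and 0.80 ± 0.08 log2 in WT mice (1.74-fold, adjusted p = 1.35e-08), where the error beside a log2 change is its standard error from limma (n = 5 mice per group). Top2a had 217, 226, 267, 338 and 223 CPM in KO smoke mice, against 144, 149, 133, 83.5 and 171 CPM in KO air mice. It had 244, 274, 226, 235 and 198 CPM in WT smoke mice, against 138, 141, 156, 138 and 107 CPM in WT air mice. Again no smoke mouse fell among the air mice of its genotype, and KO air mouse IIIb3 was the lowest of all. Top2a rose by 0.92 ± 0.14 log2 in KO (1.89-fold, adjusted p = 1.9e-05) and by 0.79 ± 0.14 log2 in WT mice (1.73-fold, adjusted p = 9.04e-05).

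**Figure D4:**
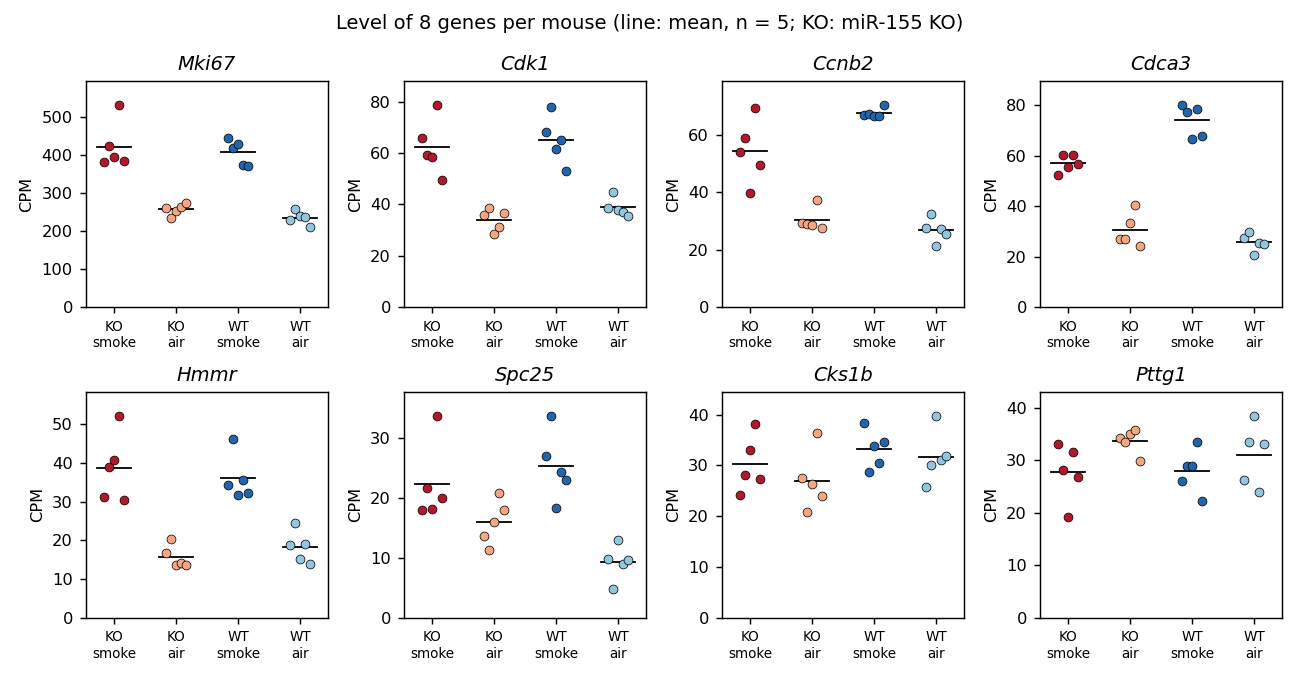
Level of 8 genes (y axes, CPM) in each mouse, with a line at the mean of 5 mice. Mki67, Cdk1, Ccnb2, Cdca3 and Hmmr have all smoke points above all air points of their genotype. Spc25 has this in WT mice only, and the groups of Cks1b and Pttg1 overlap.

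Cyclins bind and activate CDK1, the kinase that drives cells into mitosis, and the small CKS subunits help it reach its substrates. In this group 4 of 6 genes rose in KO and the same 4 of 6 in WT mice: Cdk1, Ccna2, Ccnb1 and Ccnb2. Cdk1 had 65.98, 59.1, 58.5, 78.5 and 49.4 CPM in KO smoke mice, against 35.6, 38.5, 28.3, 31.1 and 36.8 CPM in KO air mice. WT mice had 68.1, 77.9, 61.6, 65.2 and 53.03 CPM in smoke, against 38.7, 44.9, 37.9, 36.99 and 35.5 CPM in air. The groups were parted in both genotypes, with changes of 0.86 ± 0.12 log2 in KO (adjusted p = 6.8e-06) and 0.74 ± 0.12 log2 in WT mice (adjusted p = 3.69e-05). Ccnb1, cyclin B1, had 19.7, 17.2, 18.3, 26.6 and 15.7 CPM in KO smoke mice, against 9.96, 10.5, 11.5, 17.6 and 10.16 CPM in KO air mice. In WT mice the levels were 25.1, 28.2, 23.1, 29.2 and 21.8 CPM in smoke, against 11.2, 12.1, 15.4, 12.2 and 11.6 CPM in air. KO air mouse IIIb3 lay above 2 of the KO smoke mice, so the KO groups overlapped, while the WT groups did not. Ccnb1 rose by 0.72 ± 0.19 log2 in KO (adjusted p = 0.00759) and 1.03 ± 0.19 log2 in WT mice (adjusted p = 0.000145).

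Ccnb2, cyclin B2, had 54.2, 59.1, 39.9, 69.5 and 49.6 CPM in KO smoke mice, against 29.4, 29.05, 28.7, 37.3 and 27.7 CPM in KO air mice. It had 67.2, 67.5, 66.6, 66.7 and 70.5 CPM in WT smoke mice, against 27.6, 32.6, 21.2, 27.1 and 25.5 CPM in WT air mice. The 5 WT smoke mice were within a few CPM of each other, whereas the KO smoke mice spread more widely. Its change was 0.82 ± 0.13 log2 in KO (1.77-fold, adjusted p = 3.16e-05) and 1.35 ± 0.13 log2 in WT mice (2.55-fold, adjusted p = 6.11e-09). Ccna2, cyclin A2, which acts in S phase and G2, had 57.4, 72.8, 61.6, 74.1 and 65.1 CPM in KO smoke mice, against 33.8, 40.3, 37.3, 55.3 and 39.8 CPM in KO air mice. WT smoke mice had 75.3, 88.8, 56.7, 74.8 and 79.01 CPM, against 36.4, 30.5, 37.2, 24.9 and 34.4 CPM in WT air mice. The groups were again parted in both genotypes, and KO air mouse IIIb3 came closest to the smoke mice. Ccna2 rose by 0.69 ± 0.13 log2 in KO (adjusted p = 0.000378) and 1.19 ± 0.13 log2 in WT mice (adjusted p = 9.29e-08).

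The CKS subunits did not pass the test. Cks1b had 24.2, 28.04, 33.1, 38.3 and 27.4 CPM in KO smoke mice, against 27.5, 20.8, 26.3, 36.3 and 23.9 CPM in KO air mice. WT animals had 38.4, 28.6, 33.9, 30.6 and 34.5 CPM in smoke, against 25.7, 30.2, 39.8, 31.02 and 31.9 CPM in air. The smoke and air mice overlapped in both genotypes, with differences of 0.17 ± 0.15 log2 in KO (adjusted p = 0.503) and 0.07 ± 0.15 log2 in WT mice (adjusted p = 0.797). Its 95% intervals ran from 0.91- to 1.40-fold in KO and 0.85- to 1.30-fold in WT mice. Cks2 averaged 13.9 ± 1.77 CPM in KO smoke and 14.8 ± 3.68 in KO air mice, and 13.2 ± 3.22 CPM in WT smoke and 10.97 ± 2.72 in WT air mice (SD, n = 5 each). The sign of its KO difference, -0.06 ± 0.22 log2, turned without IVa4, IIIb1 or IIIb4 (0.0059 to 0.034 log2).

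The anaphase-promoting complex tags cyclins and securin for destruction, with Ube2c as its ubiquitin-conjugating enzyme and Cdc20 as an activator. Cdca3 is known to help degrade the CDK1 inhibitor WEE1 at mitotic entry. These 3 genes rose in both genotypes, and securin itself, Pttg1, did not. Ube2c had 29.3, 34.8, 34.9, 42.2 and 31.1 CPM in KO smoke mice, against 17.7, 16.3, 24.9, 33.8 and 18.5 CPM in KO air mice. In WT smoke mice it had 34.8, 34.9, 34.9, 34.2 and 32.6 CPM, against 16.4, 16.2, 20.5, 15.5 and 12.8 CPM in WT air mice. The WT groups were far apart and the WT smoke mice nearly equal, while KO air mouse IIIb3 lay among the KO smoke mice. Ube2c rose by 0.67 ± 0.17 log2 in KO (adjusted p = 0.00558) and 1.09 ± 0.17 log2 in WT mice (adjusted p = 1.71e-05). Cdca3 (chr6:124829547-124833701) had 52.4, 60.4, 55.5, 60.1 and 56.6 CPM in KO smoke mice, against 26.8, 27.1, 33.1, 40.4 and 24.3 CPM in KO air mice. The WT levels were 79.9, 77.3, 66.7, 78.3 and 67.7 CPM in smoke, against 27.5, 29.7, 20.4, 25.5 and 25.2 CPM in air. All 5 KO smoke mice lay below all 5 WT smoke mice, which held for 2.54% of all genes, and both smoke groups lay above their air groups. Its change was 0.93 ± 0.12 log2 in KO (1.91-fold, adjusted p = 2.81e-06) and 1.53 ± 0.12 log2 in WT mice (2.89-fold, adjusted p = 2.41e-10), the largest of the 47 genes in WT.

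Cdc20 averaged 23.7 ± 3.64 CPM in KO smoke and 13.9 ± 2.90 in KO air mice, a change of 0.78 ± 0.17 log2 (adjusted p = 0.002). In WT mice it averaged 21.8 ± 3.17 CPM in smoke and 13.3 ± 2.02 in air, a change of 0.71 ± 0.17 log2 (adjusted p = 0.00302). Pttg1, which holds the sister-cutting protease separase in check, had 33.05, 28.1, 19.2, 31.6 and 26.7 CPM in KO smoke mice, against 34.2, 33.5, 35.03, 35.7 and 29.8 CPM in KO air mice. In WT mice it had 26.00, 28.97, 28.9, 33.6 and 22.2 CPM in smoke, against 26.3, 33.4, 38.4, 23.99 and 33.1 CPM in air. The groups overlapped and the differences were negative, -0.30 ± 0.15 log2 in KO (adjusted p = 0.194) and -0.14 ± 0.15 log2 in WT mice (adjusted p = 0.562), and neither passed the test.

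Mitotic kinases and spindle assembly factors made up 9 genes, of which 6 rose in KO and 8 in WT mice. Tpx2, which activates Aurora A on spindle microtubules, had 74.5, 77.5, 66.7, 88.7 and 64.1 CPM in KO smoke mice, against 41.8, 48.8, 45.4, 45.7 and 37.5 CPM in KO air mice. It had 73.8, 81.1, 81.8, 75.1 and 67.6 CPM in WT smoke mice, against 46.03, 45.1, 42.98, 48.9 and 34.7 CPM in WT air mice. All groups were parted by smoke, with changes of 0.76 ± 0.11 log2 in KO (adjusted p = 6.04e-06) and 0.81 ± 0.11 log2 in WT mice (adjusted p = 1.33e-06). Hmmr, a hyaluronan receptor that also binds spindle microtubules, had 31.2, 38.9, 40.8, 52.2 and 30.6 CPM in KO smoke mice, against 16.6, 20.3, 13.6, 14.2 and 13.7 CPM in KO air mice. WT mice had 34.3, 46.4, 31.7, 35.6 and 32.4 CPM in smoke, against 18.8, 24.4, 15.3, 18.98 and 13.9 CPM in air. The smoke mice were above the air mice in both genotypes, with IVb2 the highest. Hmmr had the largest change of the 47 genes in KO mice, 1.29 ± 0.17 log2 (2.44-fold, adjusted p = 2.96e-06), and changed by 0.99 ± 0.17 log2 in WT mice (1.99-fold, adjusted p = 7.87e-05).

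Plk1, the polo kinase that promotes entry into and passage through mitosis, averaged 26.1 ± 3.44 CPM in KO smoke and 13.96 ± 3.49 in KO air mice, and 29.4 ± 4.79 CPM in WT smoke and 12.3 ± 2.33 in WT air mice. It rose by 0.93 ± 0.19 log2 in KO (adjusted p = 0.000607) and 1.26 ± 0.19 log2 in WT mice (adjusted p = 8.08e-06). The kinase Melk rose by 0.76 ± 0.20 and 1.19 ± 0.20 log2 in KO and WT mice, the spindle protein Ckap2l by 0.65 ± 0.14 and 0.86 ± 0.14, and the microtubule bundler Nusap1 by 0.56 ± 0.18 and 0.93 ± 0.18 (adjusted p = 0.00743 and 4.58e-05, 0.00142 and 3.69e-05, and 0.0277 and 0.000219). The KO call of Nusap1 was lost without IVb2, IIIa5, IIIb1 or IIIb3 (0.37 to 0.54 log2). Aurka, the Aurora A kinase of centrosomes and spindle poles, rose in WT mice by 0.80 ± 0.22 log2 (adjusted p = 0.00832) and differed by 0.56 ± 0.22 log2 in KO mice (adjusted p = 0.0866), where it passed the test without IVb4 (0.71 log2) or IIIb4 (0.66 log2). Tacc3, which stabilises spindle microtubules, rose in WT mice by 1.09 ± 0.15 log2 (adjusted p = 3.1e-06) and differed by 0.40 ± 0.15 log2 in KO mice (adjusted p = 0.0755), where it passed the test without IVa4 (0.51 log2) or IIIb3 (0.49 log2). The kinase Pbk passed in neither genotype, with 0.48 ± 0.27 log2 in KO (adjusted p = 0.24) and 0.64 ± 0.27 log2 in WT mice (adjusted p = 0.0883). A limma fit of the WT groups alone called Pbk (adjusted p = 0.0284).

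The chromosomal passenger complex corrects faulty microtubule attachments and later acts at the cleavage site, with Aurora B (Aurkb) as its kinase and survivin (Birc5), borealin (Cdca8) and Incenp as its other parts. All 4 of 4 genes rose in both genotypes, each with no overlap between smoke and air mice. Aurkb had 41.4, 34.2, 44.3, 56.2 and 38.5 CPM in KO smoke mice, against 25.1, 23.5, 28.6, 23.7 and 30.5 CPM in KO air mice. In WT macrophages the levels were 46.6, 44.4, 39.7, 43.4 and 43.5 CPM in smoke, against 21.5, 19.03, 21.3, 18.9 and 19.9 CPM in air. Among the 20 mice, Aurkb was highest in IVb2. Its changes were 0.70 ± 0.13 log2 in KO (adjusted p = 0.000204) and 1.11 ± 0.13 log2 in WT mice (adjusted p = 1.28e-07). Birc5 had 44.3, 50.3, 54.3, 59.9 and 45.4 CPM in KO smoke mice, against 26.5, 18.2, 26.8, 27.9 and 27.2 CPM in KO air mice. WT smoke mice had 65.3, 58.1, 49.8, 59.7 and 51.4 CPM, against 24.8, 27.05, 23.7, 28.2 and 24.5 CPM in WT air mice. No air mouse reached the smoke mice in either genotype, and KO air mouse IIIb1 lay below the others. Birc5 rose by 1.01 ± 0.13 log2 in KO (2.02-fold, adjusted p = 9.01e-07) and 1.14 ± 0.13 log2 in WT mice (2.21-fold, adjusted p = 7.35e-08). Incenp, the scaffold, rose by less, 0.44 ± 0.10 log2 in KO (adjusted p = 0.00188) and 0.42 ± 0.10 log2 in WT mice (adjusted p = 0.00184). Cdca8 rose by 0.48 ± 0.15 log2 in KO (adjusted p = 0.0319) and 0.99 ± 0.15 log2 in WT mice (adjusted p = 1.56e-05) and its KO call was lost without IVa2, IVb2, IIIa5 or IIIb1 (0.37 to 0.46 log2).

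The spindle checkpoint delays anaphase until all chromosomes are attached. Of its 4 genes, Bub1, Mad2l1 and Ttk rose in KO mice, and Bub1 and Mad2l1 in WT mice. Bub1, a checkpoint kinase, had 29.7, 32.6, 36.4, 40.4 and 28.2 CPM in KO smoke mice, against 20.2, 20.98, 16.6, 15.4 and 14.7 CPM in KO air mice. WT mice had 32.9, 42.2, 27.4, 30.9 and 33.4 CPM in smoke, against 15.1, 19.03, 18.99, 11.5 and 11.1 CPM in air. The groups did not overlap in either genotype, with changes of 0.93 ± 0.17 log2 in KO (adjusted p = 0.000255) and 1.16 ± 0.17 log2 in WT mice (adjusted p = 9.03e-06). Mad2l1, the checkpoint protein that binds Cdc20, had 32.5, 26.5, 35.4, 38.5 and 31.02 CPM in KO smoke mice, against 26.02, 21.9, 21.2, 16.4 and 22.3 CPM in KO air mice. Its WT levels were 44.00, 42.01, 26.9, 37.6 and 31.3 CPM in smoke, against 27.2, 22.6, 28.2, 22.7 and 30.2 CPM in air. WT smoke mouse IIb1 lay among the WT air mice, and the KO groups were parted. Mad2l1 rose by 0.61 ± 0.15 log2 in KO (adjusted p = 0.00551) and 0.46 ± 0.15 log2 in WT mice (adjusted p = 0.0281), and the WT call was lost without IIa1, IIa5, IIb2, Ia4 or Ib2 (0.38 to 0.44 log2). The KO call of Mad2l1 was lost without IIIb2, IIIb3 and IIIb4.

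Bub1b, which encodes the checkpoint protein BubR1, did not pass the test in either genotype. In WT mice limma called it with quantile normalization (0.26 log2, adjusted p = 0.0134) and with array weights (0.18 log2, adjusted p = 0.0344). It also passed there with median-of-ratios scaling (0.21 log2, adjusted p = 0.0488). It had 144, 149, 153, 139 and 133 CPM in KO smoke mice, against 150.4, 131, 136, 113 and 126 CPM in KO air mice. WT mice had 157, 156, 155, 157 and 135 CPM in smoke, against 140.2, 119.6, 128, 151 and 137 CPM in air. The groups overlapped, with differences of 0.13 ± 0.08 log2 in KO (adjusted p = 0.263) and 0.17 ± 0.08 log2 in WT mice (adjusted p = 0.126), and 95% intervals of 0.98- to 1.23-fold and 1.01- to 1.25-fold. Ttk, the kinase that starts checkpoint signalling, had the fewest reads of the 47 genes. It rose by 1.16 ± 0.36 log2 in KO mice (adjusted p = 0.0285), a call that was lost without IVa4, IVb2, IVb4, IIIb1 or IIIb2 (0.78 to 1.11 log2). In WT mice all smoke mice lay above all air mice, with a difference of 0.82 ± 0.36 log2 (adjusted p = 0.112) that passed the test when IIIb2 was left out of the model (adjusted p = 0.0432).

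Kinetochores join chromosomes to microtubules. Of 7 kinetochore and centromere genes, 5 rose in KO and 6 in WT mice. Cenpa, the histone variant that marks centromeres, had 46.4, 56.2, 42.5, 61.1 and 44.8 CPM in KO smoke mice, against 32.6, 24.3, 28.4, 33.3 and 24.9 CPM in KO air mice. For WT mice the values were 60.8, 55.2, 56.01, 57.3 and 56.3 CPM in smoke, against 32.8, 32.8, 41.4, 29.7 and 34.02 CPM in air. The groups were parted, with changes of 0.80 ± 0.12 log2 in KO (adjusted p = 1.59e-05) and 0.75 ± 0.12 log2 in WT mice (adjusted p = 2.76e-05). Ndc80, which grips microtubules as part of the NDC80 complex, had 22.4, 22.5, 26.2, 29.2 and 23.5 CPM in KO smoke mice, against 12.05, 10.3, 10.8, 11.9 and 12.1 CPM in KO air mice. WT smoke mice had 29.2, 36.3, 23.2, 24.98 and 21.1 CPM, against 17.4, 14.8, 10.3, 10.23 and 15.8 CPM in WT air mice. The KO air mice were close together and far below the KO smoke mice, and the WT groups were also parted. Ndc80 rose by 1.11 ± 0.18 log2 in KO (2.15-fold, adjusted p = 5.84e-05) and 0.98 ± 0.18 log2 in WT mice (1.97-fold, adjusted p = 0.000172).

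Nuf2, the partner of Ndc80, rose by 0.89 ± 0.20 log2 in KO and 0.77 ± 0.20 log2 in WT mice (adjusted p = 0.00206 and 0.00536). The inner subunit Spc25 (chr2:69193895-69206194) had 18.02, 21.6, 18.1, 33.6 and 20.04 CPM in KO smoke mice, against 13.6, 11.4, 16.03, 20.8 and 17.96 CPM in KO air mice. In WT mice it had 26.96, 33.7, 18.3, 24.2 and 22.99 CPM in smoke, against 9.82, 4.79, 12.9, 8.95 and 9.66 CPM in air. The WT groups were parted, while KO air mouse IIIb3 lay within the range of the KO smoke mice, of which IVb2 was far above the rest. Spc25 rose by 1.49 ± 0.23 log2 in WT mice (2.80-fold, adjusted p = 2.21e-05) and differed by 0.47 ± 0.23 log2 in KO mice (adjusted p = 0.188). Its partner Spc24 passed in neither genotype, with 0.49 ± 0.35 log2 in KO (adjusted p = 0.384) and 0.93 ± 0.35 log2 in WT mice (adjusted p = 0.0528), though it passed in WT mice without IIIb1, IIIb2, IIIb4, IIa5 or Ib1 (0.93 to 1.03 log2). A limma fit of the WT groups alone also called Spc24 (adjusted p = 0.00233). The kinetochore motor Cenpe rose by 0.60 ± 0.14 and 0.64 ± 0.14 log2 in KO and WT mice (adjusted p = 0.00344 and 0.00133), and the large coiled-coil protein Cenpf by 0.48 ± 0.16 and 0.73 ± 0.16 (adjusted p = 0.043 and 0.00147). The KO call of Cenpe was lost without IIIb2, IIIb3 and IIIb4. That of Cenpf was lost without IVa4, IVa5, IVb2, IIIa5, IIIb1, IIIb4, IIa1 or IIb2 (0.34 to 0.48 log2).

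Kinesins are motor proteins that move along or take apart microtubules. All 7 of 7 rose in both genotypes. Kif20a, which carries the passenger complex to the central spindle, had 49.2, 58.3, 48.7, 66.2 and 44.5 CPM in KO smoke mice, against 27.4, 32.4, 42.3, 28.3 and 24.9 CPM in KO air mice. In WT smoke mice it had 63.9, 56.7, 55.7, 68.1 and 58.7 CPM, against 27.9, 23.6, 28.7, 26.8 and 26.7 CPM in WT air mice. No group pair overlapped, with IIIb2 the KO air mouse closest to the smoke mice. Kif20a rose by 0.79 ± 0.13 log2 in KO (adjusted p = 5.7e-05) and 1.18 ± 0.13 log2 in WT mice (adjusted p = 7.33e-08). Kif2c, which depolymerises microtubules at kinetochores, had 24.1, 27.6, 29.2, 30.5 and 22.6 CPM in KO smoke mice, against 8.95, 22.8, 12.9, 19.6 and 20.6 CPM in KO air mice. The WT levels were 31.2, 25.6, 22.4, 32.7 and 29.3 CPM in smoke, against 11.2, 14.2, 14.8, 11.2 and 11.7 CPM in air. The WT groups were well apart, the KO air mice were spread widely, and IIIb1 lay above the lowest KO smoke mouse. Kif2c rose by 0.73 ± 0.20 log2 in KO (adjusted p = 0.012) and 1.16 ± 0.20 log2 in WT mice (adjusted p = 8.55e-05).

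Kif4, a chromosome-bound motor that shapes the midzone, rose by 1.18 ± 0.24 log2 in KO (adjusted p = 0.000832) and 1.002 ± 0.24 log2 in WT mice (adjusted p = 0.00285). Kif11, the motor that pushes spindle poles apart, rose by 0.71 ± 0.19 log2 in KO (adjusted p = 0.00779) and 0.62 ± 0.19 log2 in WT mice (adjusted p = 0.0143), and its backup Kif15 by 0.69 ± 0.17 and 0.74 ± 0.17 log2 (adjusted p = 0.00611 and 0.00234). The chromosome arm motor Kif22 rose by 0.74 ± 0.22 log2 in KO (adjusted p = 0.0191) and 1.08 ± 0.22 log2 in WT mice (adjusted p = 0.000474). Kif23, the motor of the centralspindlin complex, had the smallest change of the 7, 0.41 ± 0.12 log2 in KO (adjusted p = 0.0161) and 0.41 ± 0.12 log2 in WT mice (adjusted p = 0.0106). The KO call of Kif22 was lost without IVb2 (0.62 log2) or IIIb2 (0.49 log2), that of Kif23 without IVb2 (0.32 log2), and the WT call of Kif11 without IIa1 (0.52 log2). Kif20a shares 29.3% of its exon bases with Cdc23 on the opposite strand, and Kif4 shares 15.1% with Pdzd11. Outside the kinesins, Ccna2 shares 12.5% with Exosc9, Prc1 11.1% with Rccd1 and Tacc3 8.1% with Tmem129, also on the opposite strand. Nusap1, Cdc20 and Kif22 share smaller parts with other measured genes. Strand use in the counting is not given in the sources used here; reads of such pairs cannot be told apart.

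In cytokinesis the daughter cells are parted by a contractile ring placed at the spindle midzone. Of 4 such genes, Prc1, Racgap1 and Ect2 rose in KO mice and Prc1 and Racgap1 in WT mice. Racgap1, the partner of Kif23, had 76.2, 74.9, 84.1, 91.7 and 67.3 CPM in KO smoke mice, against 40.9, 37.7, 70.3, 58.8 and 46.9 CPM in KO air mice. The WT mice had 78.5, 83.5, 75.02, 81.9 and 66.5 CPM in smoke, against 44.4, 43.4, 46.2, 51.4 and 41.3 CPM in air. KO air mouse IIIb2 lay above the lowest KO smoke mouse, and the WT groups were parted. Its changes were 0.66 ± 0.13 log2 in KO (adjusted p = 0.000407) and 0.76 ± 0.13 log2 in WT mice (adjusted p = 4.59e-05). Prc1, which bundles midzone microtubules, had 72.6, 68.9, 72.8, 94.2 and 62.6 CPM in KO smoke mice, against 42.7, 50.3, 56.99, 44.6 and 44.5 CPM in KO air mice. WT smoke mice had 70.6, 75.7, 70.6, 74.2 and 58.4 CPM, against 46.1, 56.97, 49.1, 40.6 and 37.7 CPM in WT air mice. The lowest smoke mouse lay above the highest air mouse in both genotypes, though by a narrow margin in WT mice. Prc1 rose by 0.63 ± 0.12 log2 in KO (adjusted p = 0.000287) and 0.61 ± 0.12 log2 in WT mice (adjusted p = 0.000286).

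Ect2, the exchange factor that activates RhoA for the ring, rose by 0.72 ± 0.21 log2 in KO mice (adjusted p = 0.0197), a call that was lost without IVb2 (0.56 log2) or IIIb4 (0.54 log2). In WT mice it differed by 0.57 ± 0.21 log2 (adjusted p = 0.0533) and passed the test without IVb2, IIIb2, IIIb3, IIIb4, IIb3 or Ia3 (0.57 to 0.67 log2). Anln, the ring scaffold anillin, did not pass the test. It had 73.4, 82.9, 81.1, 85.6 and 73.3 CPM in KO smoke mice, against 54.6, 95.5, 96.1, 83.4 and 85.1 CPM in KO air mice. WT mice had 75.5, 79.8, 46.3, 69.03 and 62.7 CPM in smoke, against 70.8, 82.7, 67.2, 69.1 and 67.9 CPM in air. The groups overlapped and the differences were -0.04 ± 0.13 log2 in KO (adjusted p = 0.892) and -0.12 ± 0.13 log2 in WT mice (adjusted p = 0.574), with 95% intervals of 0.81- to 1.17-fold and 0.76- to 1.11-fold.

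**Figure D5:**
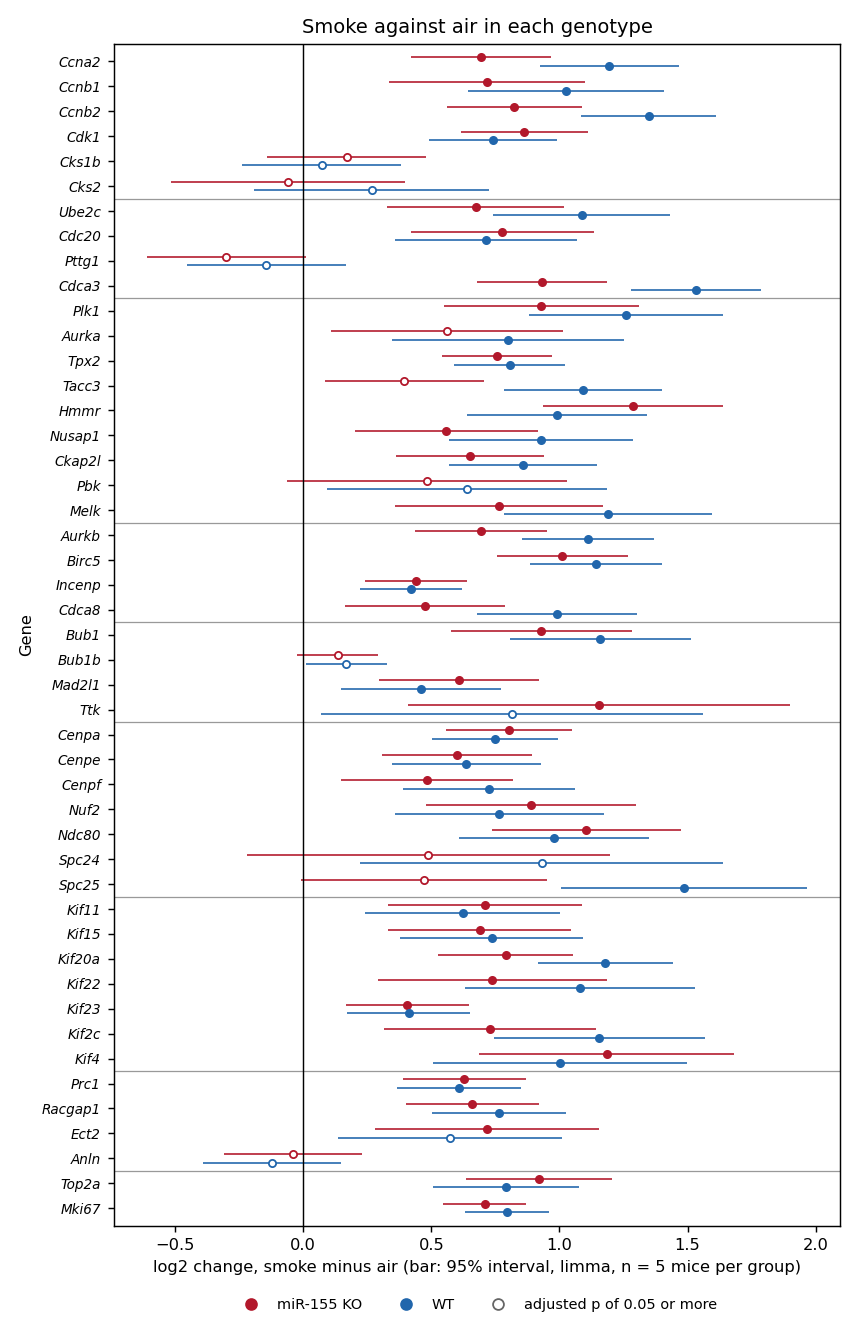
Log2 change of each gene with smoke (x axis, smoke minus air) in KO mice (red) and WT mice (blue), with 95% intervals from limma and 5 mice per group. Open circles did not pass the test. All filled circles lie to the right of 0, and Cks1b, Cks2, Pttg1, Bub1b and Anln lie closest to 0 in both genotypes.

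Between genotypes, no member passed the test of the model over all 20 libraries within air or within smoke. In KO air against WT air mice, 0 of 47 were called by limma, where 0.416% of all genes were, 7 members and 1537 genes of the table had an unadjusted p under 0.05, and voom weights also gave 0. The largest differences were Spc25 at 0.82 ± 0.23 log2 (adjusted p = 0.124), Cdca8 at 0.52 ± 0.15 (adjusted p = 0.135) and Tacc3 at 0.46 ± 0.15 (adjusted p = 0.194), and the lowest were Ttk at -0.69 ± 0.36, Mad2l1 at -0.29 ± 0.15 and Cenpa at -0.25 ± 0.12. The median difference was 0.13 log2, against -0.04 over all genes. In KO smoke against WT smoke mice, limma called 0 of 47, where 1.58% of all genes were called, 4 members (Ccnb1, Ccnb2, Cdca3 and Anln) and 1786 genes of the table had an unadjusted p under 0.05, and voom weights called Cdca3 alone. Cdca3 differed by -0.37 ± 0.12 log2 (adjusted p = 0.135) and Ccnb1 by -0.40 ± 0.19 log2 (adjusted p = 0.344), both lower in KO. Cdca3 passed the test without IIIb2, IIIb3 and IIIb4 (adjusted p = 0.043), in a fit of these groups alone (adjusted p = 0.0211) and with array weights (adjusted p = 0.00758), and Ccnb1 with array weights (adjusted p = 0.036). The highest was Kif11 at 0.28 ± 0.19 log2 (adjusted p = 0.563).

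The smoke responses themselves were compared as the KO change minus the WT change. Limma called 0 of 47 genes, as it did for 0% of all 13225, and voom weights called none, while 8 members and 1302 genes of the table had an unadjusted p under 0.05. The point estimates were smaller in KO for 31 genes and larger for 16. Cdca3 had the smallest adjusted p, with a difference of -0.60 ± 0.18 log2 (adjusted p = 0.261), followed by Tacc3 at -0.70 ± 0.21 (adjusted p = 0.283) and Spc25 at -1.02 ± 0.33 (adjusted p = 0.303). At the other end stood Ttk at 0.34 ± 0.51, Hmmr at 0.30 ± 0.24 and Kif4 at 0.18 ± 0.34 log2. For 42 of 47 genes the 95% interval stayed within a 2-fold difference in either direction, and the median half-width of the interval was 0.44 log2. The genes called in 1 genotype alone (Ttk and Ect2 in KO, Aurka, Tacc3 and Spc25 in WT) were not shown to respond differently. In limma fits of only the groups compared, Ttk and Ect2 passed in WT mice (adjusted p = 0.00917 and 0.0151). In KO mice those fits called neither (adjusted p = 0.127 and 0.0593), so the genotype of these 2 calls depended on the model. The response comparisons share their samples with the smoke comparisons above.

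Other cell cycle genes are given from lists that leave the 47 out. Of 69 measured genes of a further mitosis list, 27 were higher and 2 lower in KO smoke than in KO air mice, and 34 were higher and 2 lower in WT mice. Of all genes, 7.05% were higher and 8.45% lower in KO mice, and 9.66% higher and 12.8% lower in WT mice. Examples were the abscission protein Cep55 at 0.92 ± 0.19 log2 in KO and 1.13 ± 0.19 in WT mice, the transcription factor Foxm1, an activator of mitotic genes, at 0.73 ± 0.12 and 0.71 ± 0.12, and the microtubule destabiliser Stmn1 at 0.63 ± 0.12 and 0.92 ± 0.12. The condensin subunits Ncapd2 at 0.66 ± 0.10 and 0.73 ± 0.10, Ncapg at 0.72 ± 0.19 and 1.03 ± 0.19 and Ncaph at 1.03 ± 0.19 and 1.07 ± 0.19 log2 rose in both genotypes, within a cohesin and condensin list where 7 of 19 were higher and 1 lower in KO and 6 higher and 3 lower in WT mice. Of 16 genes of the anaphase-promoting complex core, 1 was higher in KO (Anapc15, 0.84 ± 0.19 log2) and 2 in WT mice (Anapc13, 0.78 ± 0.21, and Anapc4, 0.33 ± 0.10 log2), and none was lower, shares near those of all genes. Of 20 regulators of the DREAM, MuvB and E2F kind, 3 were higher and 1 lower in KO and 3 higher and 3 lower in WT mice, and the lower counts were likewise near those shares. The higher ones included the repressors E2f7 at 0.85 ± 0.28 in KO and 0.98 ± 0.28 log2 in WT mice and E2f8 at 0.94 ± 0.23 and 0.82 ± 0.23.

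Some genes of DNA synthesis also rose. Of 33 S phase genes, 11 were higher in KO and 15 in WT smoke mice, with medians of 0.24 and 0.43 log2, and none was lower. For this and the next 2 lists, the shares of all genes were 7.05% higher and 8.45% lower in KO mice. In WT mice they were 9.66% higher and 12.8% lower. The ribonucleotide reductase subunits Rrm1 and Rrm2, which make DNA building blocks, rose by 0.55 ± 0.08 and 0.86 ± 0.12 log2 in KO and 0.75 ± 0.08 and 1.29 ± 0.12 in WT mice, and the replication factor Mcm10 by 0.84 ± 0.23 and 0.96 ± 0.23. Among 9 genes of G1 cyclins and kinases, 2 were higher and 3 lower in KO, and 4 higher and 2 lower in WT mice. Cdk4 rose by 0.29 ± 0.08 log2 in KO and 0.71 ± 0.08 in WT mice, while Cdk6 changed by -0.69 ± 0.08 and -0.88 ± 0.08 and Ccnd2, cyclin D2, by -0.42 ± 0.10 and -0.53 ± 0.10. Some brakes of the cycle rose as well. Of 22 such genes, 6 were higher and 1 lower in KO, and 6 higher and 2 lower in WT mice. The lower ones made 4.55% and 9.09% of the list, under the shares of all genes. Cdkn1a, the CDK inhibitor p21, rose by 0.85 ± 0.11 log2 in KO and 0.81 ± 0.11 in WT mice, the G1 inhibitor Cdkn2d by 1.25 ± 0.23 and 1.17 ± 0.23, and the p53 target Ccng1 by 0.59 ± 0.07 and 0.43 ± 0.07.

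Markers of other cells moved with smoke beside these genes. Of 9 neutrophil markers 5 were measured, with a summed level of 139 to 314 CPM in KO smoke, 86.1 to 134 in KO air, 159 to 357 in WT smoke and 90.3 to 129 in WT air mice. Most of the sum in smoke mice came from Mmp8, which averaged 158 CPM in KO smoke, 29.0 in KO air, 188 in WT smoke and 35.5 in WT air mice. Of the 5 genes measured, 3 were higher and 1 lower after smoke in each genotype. Over all genes, 7.05% were higher and 8.45% lower in KO mice, and 9.66% higher and 12.8% lower in WT mice. The lower one, the G-CSF receptor gene Csf3r, averaged 23.3 CPM in KO smoke and 71.05 in KO air mice, and 17.8 CPM in WT smoke and 57.4 in WT air mice. The neutrophil alarmin S100a9 had 4 reads over the KO smoke libraries, 0 over KO air, 81 over WT smoke and 0 over WT air. Of 10 T and NK cell markers, Cd4 and Il7r were measured, and they summed to 0.642 to 6.08 CPM in KO smoke, 0 to 1.26 in KO air, 7.47 to 41.2 in WT smoke and 0.571 to 1.71 in WT air mice. Dendritic cell markers (6 of 8 measured) summed to 195 to 226 CPM in KO smoke, 121 to 167 in KO air, 215 to 364 in WT smoke and 138 to 164 in WT air mice. Most of this sum was Cd24a, with means of 185, 125, 245 and 137 CPM in these groups. Monocyte and interstitial macrophage markers (12 of 14) summed to 193 to 253 CPM in KO smoke, 288 to 325 in KO air, 217 to 466 in WT smoke and 279 to 293 in WT air mice. Of these 12, 2 were higher and 3 lower in KO and 4 higher and 2 lower in WT mice, beside the shares of all genes given with the neutrophil markers. Cd14, a receptor for bacterial lipopolysaccharide, fell by 0.66 log2 in KO and 0.67 in WT mice. The complement gene C1qa had 86 reads summed over KO smoke and 17 over KO air libraries, and 835 reads summed over WT smoke libraries and 0 over WT air. Only 1 of 5 listed eosinophil markers, Ear6, was measured. Another gene of the Ear family is among the alveolar macrophage markers, so Ear6 alone cannot stand for eosinophils. Ear6 ran from 87.9 to 124 CPM in KO smoke, 3.77 to 22.5 in KO air, 97.8 to 161 in WT smoke and 13.7 to 23.3 in WT air mice. The B cell marker Ighm stayed at or under 1.71 CPM in every mouse. Siglecf, whose protein was used for sorting, fell by 1.15 log2 in KO and 1.25 log2 in WT mice. The part of these shifts in the rise of the mitotic genes was not tested.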

How the data were processed

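Per the labels' protocols, RNA of sorted alveolar macrophages was extracted with a miRNeasy kit and poly-A selected for TruSeq libraries. The submitters' processing notes name STAR 2.6.0c, limma and the build GRCm38.p6. For the counting tool, annotation, strand use and filter, nothing is stated in the labels. The deposited values are log2 CPM that the authors made with the voom formula (0.5 reads added to each count, 1 to the total), and 100% of them gave back whole reads within 0.001. Precision rests on totals of 6885680 to 11952088 reads per library.

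Groups came from the labels. The model was limma 3.58.1 in R 4.3.3 on the deposited log2 values of all 13225 genes, with 1 mean for each of the 4 groups and moderated variances that follow a trend on mean level. Its 2-sided p-values were adjusted (Benjamini-Hochberg) over the whole table. It was tested on simulated data. Gene coordinates are of GENCODE release M21 and promoters of RefSeq, both on GRCm38. Python 3.11.15 with pandas 2.3.3 did the rest.

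The members and lists were chosen with earlier results of these data known. Values in every mouse are given for Mki67, Top2a, Cdk1, Ccnb1 and up to 2 genes per role with the smallest p of the averaged smoke effect. Of other lists, up to 3 called genes with the smallest such p are named. Members not called in a genotype after smoke are named with values, and for Cks1b, Pttg1, Bub1b, Anln and Spc25 every mouse is shown beyond that rule. Between genotypes only the extremes are named. Marker genes Cd4, Cd14, Cd24a, Chil3, Csf3r, Ighm, Lyz2, Mmp8 and S100a9 were named after their values were seen. Alternatives were other variance priors, minimum levels, a pseudocount of 1, other scalings, other weights, fits of fewer groups, the letter of the mouse code as a covariate and leaving out libraries. Voom weights and median-of-ratios scaling were added after seeing the data. The result of 1 gene outside the 47 is not reported here.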

Additional observations from a re-analysis of the deposited data

Results flagged for a closer look

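Single mice stood apart from the other 4 of their group in 11 of 188 groups of 5 mice (47 genes in 4 groups). The measure was the gap between a mouse and its nearest neighbour as a share of the range of log2 CPM values. Chance flags about 1 in 20 such groups, or 9.4 of 188. In KO smoke mice, IVb2 was high for Spc25, with 33.6 CPM against 18.0 to 21.6 in the others, and for Ect2, with 43.1 CPM against 22.9 to 27.1. In KO air mice, IIIb3 was high for Ccnb1, with 17.6 CPM against 9.96 to 11.5, and for Ccnb2, with 37.3 CPM against 27.7 to 29.4. Also in KO air mice, Birc5 was low in IIIb1, with 18.2 CPM against 26.5 to 27.9, and Anln was low in IIIa5, with 54.6 CPM against 83.4 to 96.1.

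WT smoke mouse IIb3 was high for Ccnb2, with 70.5 CPM against 66.6 to 67.5, and low for Bub1b, with 134.5 CPM against 155 to 157, and for Prc1, with 58.4 CPM against 70.6 to 75.7. In WT air mice, Ib1 was high for Ccnb1, with 15.4 CPM against 11.2 to 12.2, and Ia4 was high for Anln, with 82.7 CPM against 67.2 to 70.8.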

How the results depend on the processing

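Of 37 genes called higher after smoke in KO mice, 27 were called under all 33 alternatives, and of 38 in WT mice, 36 were, and all of these called genes had a positive change under each. Leaving out each mouse in turn gave 30 to 37 called genes in KO, 36 to 41 in WT and 41 to 43 averaged over genotypes. The smallest count in KO mice, 30, came without IVb2. For KO smoke against WT smoke mice the count of 0 became 2 with array weights, 1 with only the groups compared, 1 with voom weights and 1 without IIIb2, IIIb3 and IIIb4. The KO difference of Anln turned positive with array weights (0.029), without IIIb2, IIIb3 and IIIb4 (0.13) and with median-of-ratios scaling (0.0048), and its averaged difference without those 3 libraries (0.0044). The causes were not tested. Leaving out single mice turned signs of differences that were not called: Anln ran from -0.18 to 0.020 log2 in KO and -0.19 to 0.0024 in WT mice, Cks2 from -0.21 to 0.034 in KO mice, and the response differences of Kif4 from -0.11 to 0.36 and of Ttk from -0.035 to 0.57. The median of all genes moved by less than 0.1 log2 under every scaling. Fits with DESeq2 and edgeR were planned and not run, since the deposited unit is log2 CPM. No paired analysis was possible because each mouse code occurs once, in 1 group. Depth limits Ttk most, which had 10 reads in 1 library.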
